A study of Mus musculus with 4 samples.

Results

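The 6 genes described here, Pcdh7, Pcdh8, Pcdh9, Pcdh10, Pcdh17 and Pcdh19, encode non-clustered protocadherins. They were taken by name from the 55511 features of the count tables, and their transcript counts were followed across the cell types, the clusters of mature olfactory sensory neurons (OSNs) and the receptor-defined neuron populations of the mouse main olfactory epithelium, which lines part of the nasal cavity. Live nucleated cells were sorted from the epithelium of 4 male C57BL/6 mice aged 8 weeks, without odorant exposure or any other treatment, and each mouse gave 1 droplet-based library read from the 3′ end of transcripts. The mice form 1 group, so that every comparison is between cells of the same animals and the mice are the replicates (n = 4). Transcripts were counted by their molecular tags (unique molecular identifiers, UMIs), and a level is the summed UMIs of a gene in the cells of 1 mouse per 10000 UMIs of those cells, given as the mean ± SD of the mice.

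Protocadherins are transmembrane proteins with extracellular cadherin repeats that bind the same protein on a facing cell. The non-clustered members lie apart from the large clustered arrays, and most are grouped as δ-protocadherins. Pcdh7 and Pcdh9 belong to the δ1 subgroup, whose tails carry a motif for protein phosphatase 1. Pcdh8, Pcdh10, Pcdh17 and Pcdh19 belong to the δ2 subgroup, several members of which bind the WAVE complex, a regulator of actin branching. In the olfactory system each mature OSN expresses 1 odorant receptor gene, and the axons of all neurons with the same receptor converge on a few glomeruli of the olfactory bulb, a process in which adhesion and guidance molecules such as Kirrel2, Kirrel3 and Nrp1 take part. The question addressed was how far these adhesion genes differ between neurons that express different receptors.

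In the GRCm38 genome with the GENCODE M21 annotation, Pcdh8 (ENSMUSG00000036422, chr14:79766775-79771312, minus strand), Pcdh17 (ENSMUSG00000035566, chr14:84443563-84539002, plus strand) and Pcdh9 (ENSMUSG00000055421, chr14:93013410-93890679, minus strand) lie on 1 chromosome. Pcdh10 (ENSMUSG00000049100) lies at chr3:45378398-45435623 on the plus strand. Pcdh7 (ENSMUSG00000029108) lies at chr5:57717967-58133230 on the plus strand. Pcdh19 (ENSMUSG00000051323) lies at chrX:133582860-133688987 on the minus strand. All 6 are protein-coding genes, and since only the 3′ end of a transcript was read, levels were compared between cells for 1 gene and not between genes.

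The libraries held 23157467 to 32382702 UMIs in 4746 to 6003 cell barcodes, of which the authors retained 3006 to 4657 cells per mouse in 10 cell types. Mature OSNs numbered 1887 to 3230 per mouse, with median depths of 4004 to 6591 UMIs per cell, and 1759 to 3000 of them had a receptor identity. Between 4 and 14 barcodes were shared by any pair of libraries, at most 0.295% of the smaller library. The neuronal types held their defining transcripts. The summed level of Omp, Cnga2, Gng13 and Adcy3 was 180 UMIs per 10000 in mature OSNs (range over mice 177 to 184), and that of Gap43, Gng8 and Stmn2 was 85.7 in the type iOSN1. Globose basal cells (GBC) also held 4.20 to 11.8 summed UMIs per 10000 of 6 microvillar markers, none at 0 (among them Ascl3 at 1.99 ± 1.41, Foxi1 at 1.84 ± 0.78 and Sox9 at 1.83 ± 1.31), and 2.59 to 6.59 of the endothelial and stromal markers Pecam1, Cdh5, Col1a1 and Dcn, none at 0. Of the latter sum Dcn made up 3.52 and Col1a1 0.780, while Pecam1 (0.0428) was below its level in mature OSNs (0.0616). In the basal cell type HBC2 the same sum of 7.19 to 8.40 was almost all Dcn (7.79), with Cdh5 at 0. HBC2 also held 20.9 to 55.5 of the markers listed for sustentacular cells, none at 0, with Cyp2g1 at 25.7, Cyp1a2 at 3.48 and Ermn at 1.59 against 71.4, 15.4 and 4.34 in sustentacular cells, and with Muc2, the last of the list, at 2.49 against 0.0040. In the microvillar type Mv1 the sum of the mature neuron markers, 22.7 to 45.0 with none at 0, was mostly Gng13 (24.6), while Omp was 4.37, Cnga2 0.424 and Adcy3 0.282 against 72.1, 7.24 and 11.0 in mature OSNs. The part of other cells in the values of GBC, HBC2 and Mv1 was not tested.

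Across cell types the 6 genes had different profiles, and the highest mean was in a type outside the neurons for Pcdh7, Pcdh8, Pcdh17 and Pcdh19. These values are a description without a test, because the types were clustered from the same cells and genes. Pcdh7 was highest in the horizontal basal cells of type HBC1, the quiescent stem cells at the base of the epithelium. Its level there was 4.03, 4.25, 3.92 and 3.53 UMIs per 10000 in mice 1 to 4, a mean of 3.93 ± 0.30 (SD, n = 4). Every mouse of HBC1 lay above every mouse of the next type, the microvillar cells Mv2, at 1.56 ± 0.19. Mv2, HBC2 (1.32 ± 0.39) and the sustentacular cells, the glia-like supporting cells of the epithelium (1.24 ± 0.25), overlapped between mice. In the neuronal lineage Pcdh7 was 0.109 ± 0.071 in immediate neuronal precursors (INP), 0.857 ± 0.151 in iOSN1, 0.791 ± 0.101 in iOSN2 and 0.606 ± 0.045 in mature OSNs.

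Pcdh17 was highest in sustentacular cells, at 4.47, 4.12, 4.97 and 5.10 UMIs per 10000 in mice 1 to 4 (4.67 ± 0.46, SD, n = 4). No mouse of another type reached this range. The next types were iOSN2 (2.38 ± 0.31), the microvillar cells Mv1 (2.07 ± 0.55), iOSN1 (1.86 ± 0.27) and mature OSNs (1.56 ± 0.17), and neighbours in this order overlapped between mice. The lowest level was that of Mv2 (0.231 ± 0.051).

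Pcdh10 had its highest levels in the older neurons. It stood at 0.827, 0.689, 0.821 and 1.27 UMIs per 10000 in the mature OSNs of mice 1 to 4 (0.901 ± 0.252, SD, n = 4), with mouse 4 above the other 3. Mature OSNs overlapped with iOSN2 (0.785 ± 0.099), every mouse of iOSN2 lay above every mouse of iOSN1 (0.430 ± 0.151), and no other type had a mean over 0.181. In Mv2 the level was 0.00487 ± 0.00973, and 3 of the 4 mice had no UMI.

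Pcdh8 had its highest mean in GBC, the proliferating progenitors, at 0.905, 0.953, 0.700 and 0.577 UMIs per 10000 in mice 1 to 4 (0.784 ± 0.176, SD, n = 4). That range overlapped with iOSN2 (0.511 ± 0.073), whose mice overlapped in turn with mature OSNs (0.501 ± 0.029) and INP (0.497 ± 0.060). The stage between them, iOSN1, was lower at 0.220 ± 0.035, and its 4 mice lay below all mice of INP and of iOSN2. In HBC1 no UMI of Pcdh8 was counted in 210 cells.

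Pcdh9 and Pcdh19 were low in precursors, higher in later neuronal stages and also present in HBC1. Pcdh9 was 0.0586 ± 0.0348 in INP, 0.310 ± 0.043 in iOSN1, 0.618 ± 0.094 in iOSN2 and 0.553 ± 0.073 in mature OSNs, with 0.585 ± 0.180 in HBC1 (SD, n = 4). Pcdh19 was 0.0486 ± 0.0189 in INP, 0.398 ± 0.054 in iOSN1, 0.645 ± 0.023 in iOSN2 and 0.509 ± 0.057 in mature OSNs, with 0.819 ± 0.269 in HBC1. For both genes every mouse of iOSN1 lay above every mouse of INP. HBC1 overlapped with iOSN2 for both, while iOSN2 lay above mature OSNs in every mouse for Pcdh19 and overlapped with them for Pcdh9.

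**Figure D1:**
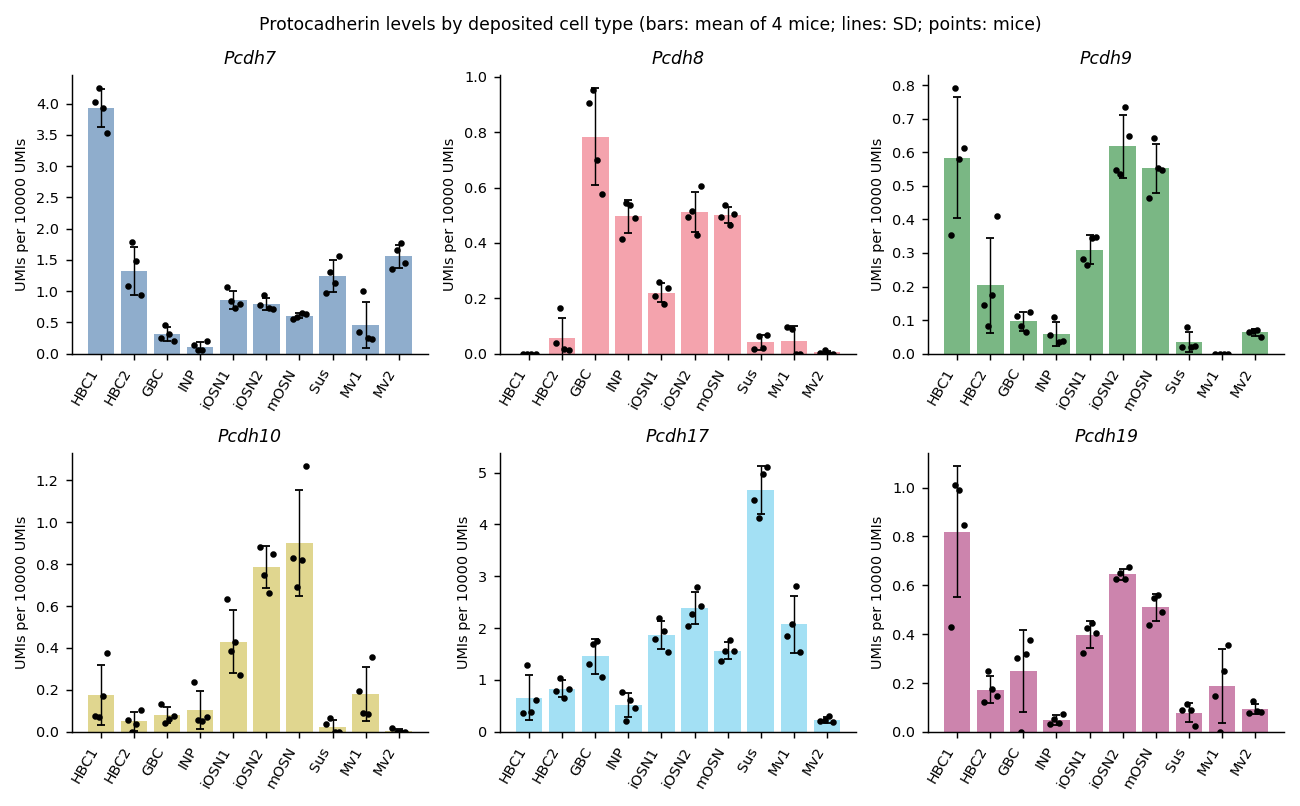
Level of each gene (UMIs per 10000 UMIs, each panel on its own scale) in the 10 deposited cell types, with bars for the mean of 4 mice, lines for the SD and points for the mice. Pcdh7 stands at 3.93 in HBC1 and Pcdh17 at 4.67 in sustentacular cells, while Pcdh10 is highest in mature OSNs and iOSN2.

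The share of cells with at least 1 UMI depends on depth, so cells were also thinned to 3000 UMIs each, which left out 1572 of 10519 mature OSNs. After thinning, Pcdh10 was detected in 15.9% ± 3.6 of mature OSNs (SD, n = 4), against 0.107% ± 0.214 of Mv2 cells and in no sustentacular cell of 302. Before thinning these shares were 22.5% ± 3.4, 0.315% ± 0.630 and 1.36% ± 1.58, at median depths of 4861, 5081 and 5587 UMIs. Pcdh8 was detected in 11.1% ± 1.0 of thinned mature OSNs and in 0.0534% ± 0.1068 of Mv2 cells. Pcdh9 was found in 14.1% ± 1.6 of them against 0.357% ± 0.714 of sustentacular cells. Other types were not as low, with Pcdh8 in 12.7% ± 7.5 of thinned GBC and 12.9% ± 3.6 of INP, and Pcdh9 in 13.55% ± 8.49 of HBC1. Free RNA in the droplets can also give UMIs, and its part in these shares was not tested. For Pcdh7, Pcdh17 and Pcdh19 the lowest shares were 3.48% ± 2.50 in INP, 5.99% ± 1.40 in Mv2 and 1.10% ± 1.31 in INP, against 13.1% ± 0.6, 29.2% ± 1.3 and 13.3% ± 1.3 in mature OSNs.

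Single neurons held few of the 6 transcripts at this depth. Of the thinned mature OSNs, 35.0% ± 1.8 had no UMI of any of the 6 genes, 39.8% ± 0.9 had 1 of the genes, 19.5% ± 1.1 had 2 and 5.07% ± 0.39 had 3 (SD, n = 4). Without thinning, 22.8% ± 4.6 had none. A neuron without a UMI may still express the gene, so these shares describe detection.

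The mature OSNs were then read by the 10 deposited clusters, which the authors had made without the receptor genes and named by side of the nasal cavity (D., dorsal, V., ventral) and by leading gene. As above, these levels are a description. Pcdh8 had its highest levels in the 2 clusters named for Cd55. In the ventral Cd55+ cluster it was 1.98, 1.85, 2.32 and 1.91 UMIs per 10000 in mice 1 to 4 (2.02 ± 0.21), and in the dorsal one 1.60, 1.45, 1.36 and 1.24 (1.42 ± 0.15). All 8 values lay above those of any other cluster, of which the highest was the ventral Dlg2+ cluster (0.734 ± 0.054). The lowest was the dorsal Cd36+ cluster, at 0.0261 ± 0.0327, where mice 2 and 4 had no UMI.

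Pcdh9 had its highest means in the Calb2+ clusters, at 1.07 ± 0.20 dorsally and 0.920 ± 0.091 ventrally (SD, n = 4). Both overlapped between mice with the Dorsal cluster (0.799 ± 0.187) and the dorsal Cd55+ cluster (0.753 ± 0.278). In the ventral Cd36+ cluster Pcdh9 was 0.0299, 0.0429, 0.0473 and 0.0305 in mice 1 to 4 (0.0377 ± 0.0088), and no other cluster had a lower mean. Pcdh7 ran the other way in that cluster. Its level in ventral Cd36+ neurons was 0.793, 1.47, 1.12 and 1.13 (1.13 ± 0.28), its highest mean of the 10 clusters, followed by the ventral Dlg2+ cluster (0.796 ± 0.140), and it was lowest in the ventral Calb2+ cluster (0.182 ± 0.059).

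Pcdh10 was highest in the Dlg2+ clusters, with 1.39 ± 0.25 dorsally and 1.16 ± 0.42 ventrally, and lowest in the ventral Cd36+ (0.132 ± 0.051) and ventral Cd55+ (0.160 ± 0.064) clusters. Mouse 4 had the highest level of this gene in 8 of the 10 clusters. Pcdh17 varied least in proportion, from 0.933 ± 0.144 in the ventral Cd55+ cluster to 2.06 ± 0.31 in the dorsal Cd36+ cluster. Pcdh19 ranged from 0.297 ± 0.042 in the ventral Dlg2+ cluster to 0.798 ± 0.183 in the dorsal Calb2+ cluster.

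**Figure D2:**
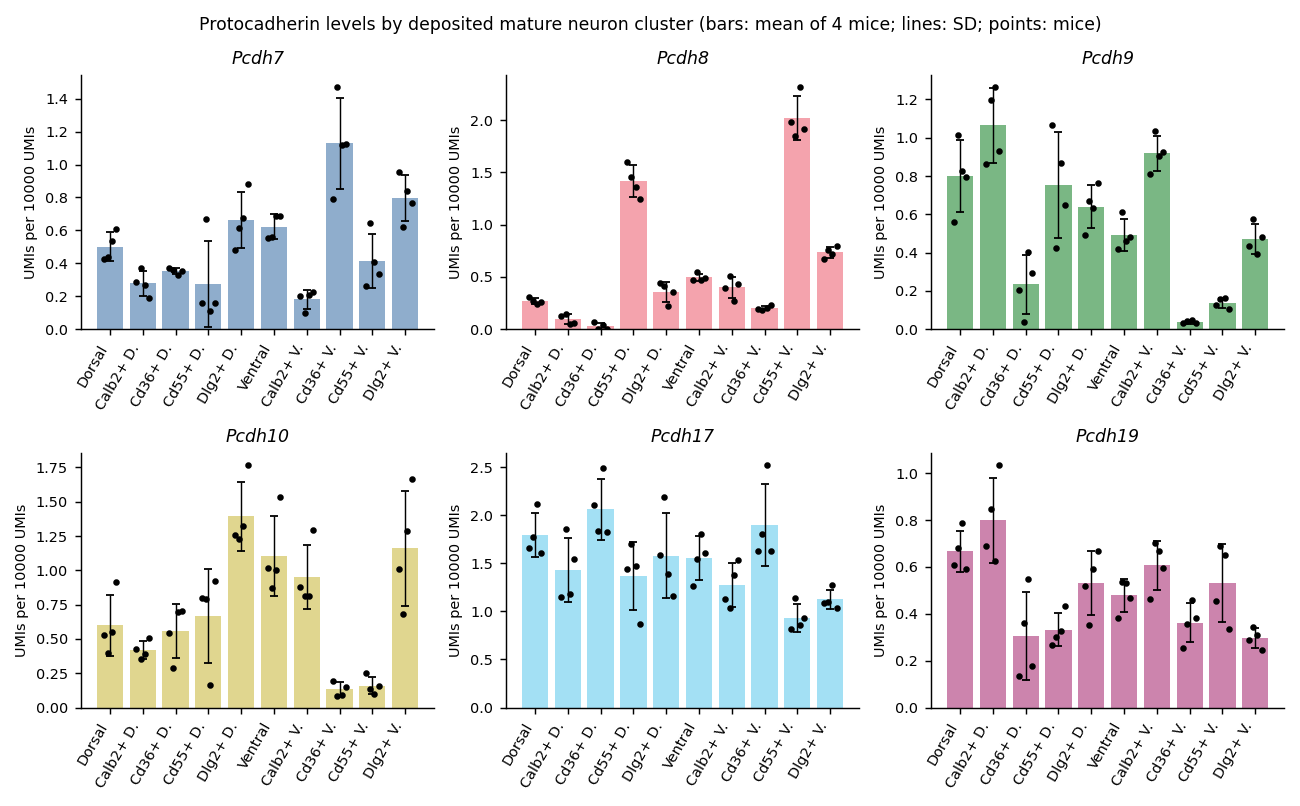
Level of each gene (UMIs per 10000 UMIs, each panel on its own scale) in the 10 deposited clusters of mature OSNs, dorsal clusters on the left and ventral ones on the right, with bars for the mean of 4 mice, lines for the SD and points for the mice. Pcdh8 stands out in both Cd55+ clusters, while Pcdh9 and Pcdh10 are lowest in the ventral Cd36+ cluster.

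All neurons with the same receptor identity form a population. The deposited identities gave 960 populations with 9791 neurons, of which 134 populations with 4143 neurons had 20 or more neurons. Sums over the neurons of 1 population in 1 mouse were kept where that mouse had at least 3 such neurons, which left 499 sums. Differences among the 134 populations were tested on these sums with edgeR's quasi-likelihood test in a model that also held the mouse, across 5831 genes other than receptor genes, with p-values adjusted over all of them by the Benjamini-Hochberg method.

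All 6 protocadherins differed among the populations. The background is high, since 1264 of the 5831 genes, 21.7%, passed the same test. The F statistics of the 6 genes were 17.2 for Pcdh10 (adjusted p = 3.87e-141), 10.6 for Pcdh8 (4.33e-86), 9.94 for Pcdh7 (1.63e-83), 6.05 for Pcdh9 (1.31e-52), 5.05 for Pcdh17 (1.99e-43) and 3.53 for Pcdh19 (2.44e-25). The median F of all genes tested was 1.06. By F, Pcdh10 was number 21 of the 5831 genes, Pcdh8 number 43, Pcdh7 number 49, Pcdh9 number 98, Pcdh17 number 132 and Pcdh19 number 227. Genes entered with a mean of at least 1 UMI over all sums, which a gene can reach through a few high populations. Pcdh7, with 48.5% of its UMIs in its 10 highest populations, depends on them for its entry. Without this filter all 6 genes were called, with 2103 of 21500 genes.

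The differences were also present among neurons of 1 side and 1 receptor class. Among the populations of ventral type, defined here as class II receptor populations with more UMIs of Nfix than of Nqo1 (markers of ventral and of dorsal neurons), 1056 of 6042 genes, 17.5%, passed the test, and all 6 protocadherins were among them. Their F statistics were 20.7 for Pcdh10 (adjusted p = 6.49e-128), 12.2 for Pcdh7 (2.84e-79), 11.3 for Pcdh8 (4.32e-75), 5.82 for Pcdh17 (1.08e-39), 5.64 for Pcdh9 (7.68e-37) and 3.78 for Pcdh19 (2.45e-21), all from edgeR's quasi-likelihood test. For 76 populations the most frequent cluster was the one named Ventral, which has no further marker in its name. These, which include the class I population Olfr686, still spanned from 0 to 12.2 UMIs per 10000 for Pcdh10 and from 0 to 5.38 for Pcdh7. Leaving out any of the 4 mice left every one of these calls in place.

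Pcdh10 reached its highest level in neurons expressing Olfr169, a ventral population of 31 neurons whose receptor gene lies at chr16:19564889-19571809. Its level was 15.8, 7.86 and 12.8 UMIs per 10000 in the 3 mice with at least 3 such neurons (12.2 ± 4.0, SD, n = 3), 14.0 times the mean of the 134 populations. A UMI of Pcdh10 was found in 93.5% of these neurons (95% Wilson interval 79.3% to 98.2%), and in 96.2% of those thinned to 3000 UMIs, against 15.5% of thinned neurons of the other populations. Olfr286 followed with 2.96, 6.58, 3.97 and 11.1 in mice 1 to 4 (6.16 ± 3.64, n = 4) and Olfr330 with 6.51, 3.21 and 6.36 in 3 mice (5.36 ± 1.86, n = 3). These populations were named for their values, so they carry no test of their own. At the other end, 15 of the 134 populations had no UMI of Pcdh10. The deepest of these were Olfr1428, with 185484 UMIs in all, Olfr295 and Olfr354, where a count of 0 allows levels of up to 0.162, 0.172 and 0.196 UMIs per 10000 (3 counts over the population). The distribution was steep, with a median over the 134 populations of 0.279, an upper quartile of 0.933 and 47.7% of the gene's UMIs in the 10 highest populations, which held 8.38% of all UMIs. Intervals and limits of this kind cover counting error only.

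Pcdh7 had a similar shape. Neurons expressing Olfr309 (chr7:86304474-86313708, 21 neurons) held 5.17, 2.92, 6.02 and 7.40 UMIs per 10000 in mice 1 to 4 (5.38 ± 1.88, SD, n = 4), 14.6 times the mean of the populations, and 95.2% of them had a UMI (95% Wilson interval 77.3% to 99.2%). Next were Olfr741 (2.92 ± 0.86) and Olfr15 (2.85 ± 0.37). In 48 populations no UMI was counted, among them Olfr1211, Olfr1176 and Olfr820, which had at least 224622 UMIs each and where 0 counts allow at most 0.134 UMIs per 10000. The median population stood at 0.0767, and the 10 highest populations held 48.5% of the UMIs of this gene. The mean over the 134 populations was 0.368, against 0.606 over all mature OSNs, so these values describe the large populations only.

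Pcdh8 went undetected in more populations than the other 5 genes, with no UMI in 58 of 134. Its highest levels were in Olfr354 (1.74, 2.78, 3.87 and 2.87 in mice 1 to 4, 2.82 ± 0.87, SD, n = 4), Olfr295 (2.36 ± 0.65) and Olfr839-ps1 (2.32 ± 0.88, n = 3). The most frequent cluster was the ventral Cd55+ one for Olfr354 and Olfr839-ps1 neurons, and the one named Ventral for Olfr295 neurons. The deepest populations without a UMI were Olfr1195, Olfr1507 and Olfr1176, where 0 counts allow at most 0.121, 0.123 and 0.129 UMIs per 10000. In Olfr354, 75.9% of neurons had a UMI of Pcdh8 (95% Wilson interval 57.9% to 87.8%), against 13.9% of the neurons of the other populations at nearly the same median depth (5054 and 4864 UMIs).

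The remaining 3 genes were spread more evenly. Pcdh9 was highest in Olfr1361 (chr13:21656880-21663386), with 1.61, 2.88, 1.05 and 2.92 UMIs per 10000 in mice 1 to 4 (2.11 ± 0.93, SD, n = 4), followed by Olfr1037 (2.02 ± 1.12) and the class I population Olfr661 (1.91 ± 1.73, n = 3). It had no UMI in 24 populations, among them Olfr1348 with 436268 UMIs, where 0 counts allow at most 0.0688 UMIs per 10000, and Olfr1440 and Olfr536. The middle of its distribution ran from 0.121 at the lower to 0.895 at the upper quartile.

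Pcdh17 was detected in all but 3 of the 134 populations (Olfr1260, Olfr1437 and Olfr1416), with quartiles of 0.585 and 1.67. Its highest mean, in Olfr972, varied between mice from 0.483 to 9.05 (4.58 ± 4.18, SD, n = 4), so its place in the order is uncertain. Olfr1195 (3.45 ± 0.83, n = 4) and Olfr1254 (3.42 ± 0.30, n = 2) came next, and in Olfr1195 the lowest mouse stood at 2.31. Pcdh19 was highest in Olfr1428 (0.511, 1.89, 1.41 and 1.84 in mice 1 to 4, 1.41 ± 0.64), Olfr1039 (1.40 ± 1.09, n = 3) and Olfr984 (1.38 ± 0.89), and these overlapped between mice. In 5 populations it had no UMI, the deepest being Olfr731, Olfr1197 and Olfr1228, with upper limits of 0.116, 0.146 and 0.238. The 10 highest populations held 17.8% of the UMIs of Pcdh17 and 16.2% of those of Pcdh19.

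**Figure D3:**
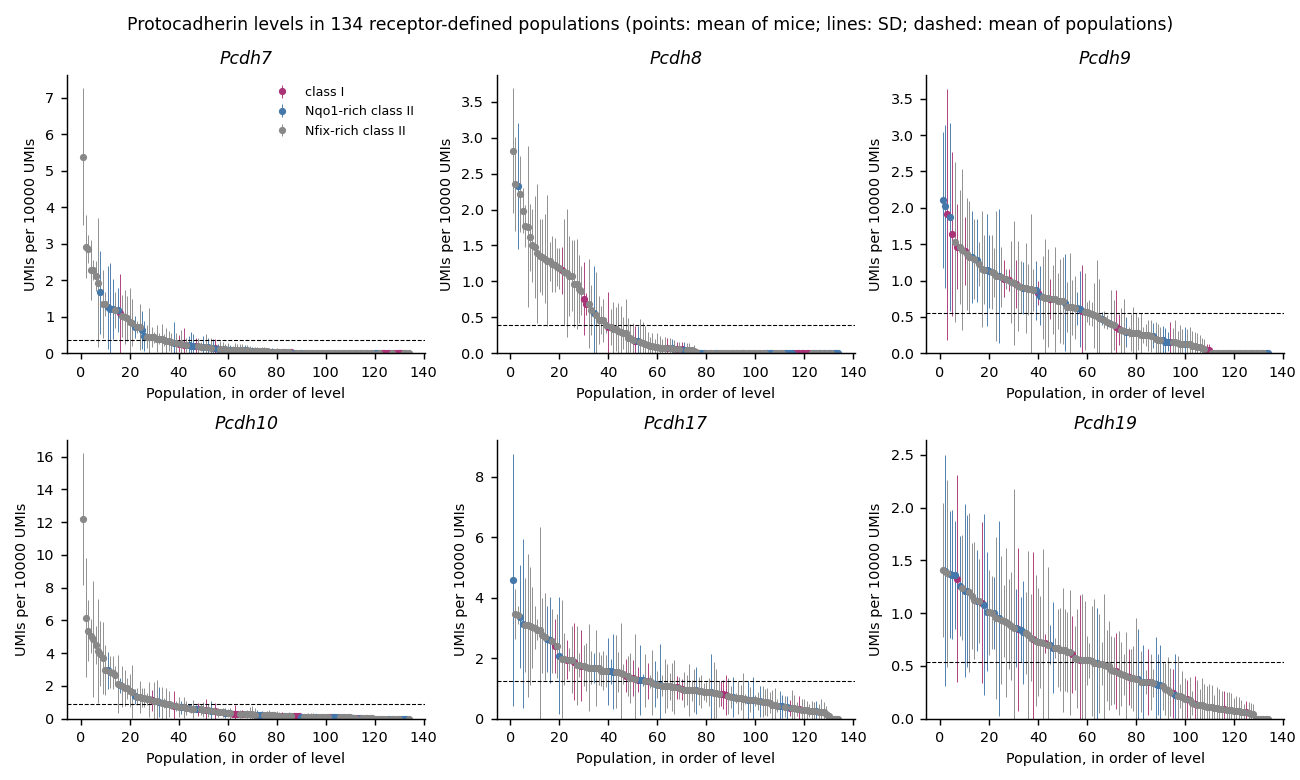
Level of each gene (UMIs per 10000 UMIs, linear scale per panel) in the 134 populations with 20 or more neurons, in order of level, with points for the mean of 2 to 4 mice, lines for the SD (not drawn below 0), colours for receptor class and side, and a dashed line for the mean of the populations. Pcdh7 and Pcdh10 fall from single populations at 5.38 and 12.2 to medians of 0.0767 and 0.279, while Pcdh17 and Pcdh19 decline gradually.

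The order of the populations was similar in different mice. Over populations with at least 5 neurons in both mice of a pair, the Spearman correlation of levels between mice ranged over the 6 pairs of mice from 0.725 to 0.841 for Pcdh8, from 0.661 to 0.810 for Pcdh10, from 0.627 to 0.748 for Pcdh9 and from 0.503 to 0.611 for Pcdh7. It was lower for Pcdh17 (0.376 to 0.609) and for Pcdh19 (0.309 to 0.533). These are correlations across populations of unequal depth, and they are given as a description.

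The 6 genes did not mark the same populations. With a level of at least 2 times the gene's own mean over the populations counted as high, 47 populations were high for none of the 6 genes, 52 for 1 gene, 32 for 2 genes and 3 for 3 genes, and no population was high for more. The 3 populations, named after their values were seen, were Olfr536 (Pcdh7, Pcdh8 and Pcdh10), Olfr686 (Pcdh7, Pcdh9 and Pcdh19) and Olfr969 (Pcdh7, Pcdh17 and Pcdh19). By gene, 21, 29, 21, 19, 17 and 18 of the 134 populations were high for Pcdh7, Pcdh8, Pcdh9, Pcdh10, Pcdh17 and Pcdh19. Pairs of genes shared from 0 such populations (Pcdh10 and Pcdh17) to 6 (Pcdh7 and Pcdh17). With sets of this size, genes unrelated to each other would also share few populations. Whether the overlaps depart from that was not tested. The Spearman correlations of the 15 gene pairs across the 134 populations, taken over the mean levels in UMIs per 10000, lay between -0.338 (Pcdh17 and Pcdh19) and 0.215 (Pcdh7 and Pcdh17). The values of a pair come from the same libraries and neurons, so no p-value is attached to them.

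The highest populations of each gene show these combinations. They are sums over populations, and detection of both genes in the same neuron was not examined. In Olfr15, Pcdh7 and Pcdh10 were both high, at 7.76 and 5.62 times the mean of each gene, and Pcdh8 had no UMI. The level of Pcdh10 there was 4.88 ± 3.56 UMIs per 10000 (SD). Olfr354 and Olfr839-ps1 held Pcdh8 with Pcdh7 (3.67 and 3.27 times its mean, at 1.35 ± 0.92 and 1.20 ± 0.82 UMIs per 10000). They held almost no Pcdh9 or Pcdh10, with 0 and 1 UMI of Pcdh10. Olfr1037 held Pcdh9 with Pcdh10, at 3.62 and 3.41 times their means. In the largest population, Olfr728 (83 neurons), Pcdh10 was 4.27, 2.93, 5.50 and 5.29 UMIs per 10000 in mice 1 to 4 and Pcdh8 was 1.28 ± 0.27 (SD, n = 4), whereas in Olfr1226 (79 neurons) Pcdh8 was 0.0183 ± 0.0367 and Pcdh7 was 0.722 ± 0.164. In Olfr1348, of equal size, Pcdh10 was 1.28 ± 0.60 and Pcdh9 had no UMI.

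**Figure D4:**
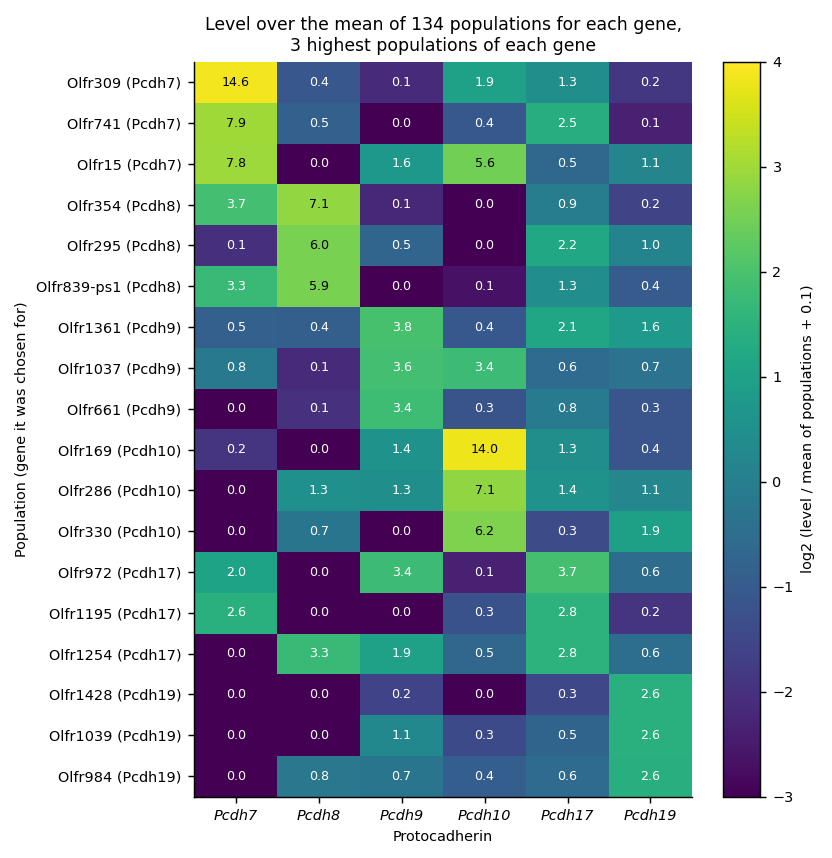
Level of the 6 genes in the 3 highest populations of each, divided by the mean of that gene over 134 populations (numbers in the cells) and coloured by log2 of this ratio plus 0.1. Each population was chosen for the gene in brackets, where the ratio runs from 2.6 for Pcdh19 up to 14.6 for Pcdh7, and the other 5 genes range from 0 to 5.6.

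Odorant receptors fall into class I, whose genes lie in 1 array on mouse chromosome 7 and whose neurons are mostly dorsal, and class II. Class I neurons (1071 neurons of 106 populations) were compared with class II neurons of Nqo1-rich populations (2248 neurons of 273 populations). Class I was not filtered by side. Of its 15 populations with 20 or more neurons, Olfr686 (27 neurons) was Nfix-rich, with Ventral as its most frequent cluster. Its means of Pcdh7 (1.09 ± 1.08 UMIs per 10000, SD, n = 4) and Pcdh19 (1.33 ± 0.98) were the highest of the 15. UMIs were summed per mouse over all neurons of a group, and edgeR's quasi-likelihood test was run across 11176 genes with the mouse as a block. Of these genes 407 were higher in class I, 3.64%, and 281 were lower, 2.51%. Among the 6 protocadherins 1 rose and 3 fell. When libraries were scaled by total UMIs instead, 5 of the 6 were called, and 264 of 748 called genes were higher.

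Pcdh7 was much lower in class I neurons, at 0.095, 0.237, 0.110 and 0.152 UMIs per 10000 in mice 1 to 4, against 0.625, 0.859, 0.897 and 0.849 in Nqo1-rich class II neurons. The groups did not overlap, and the log2 difference was -2.46 ± 0.15 (SE, adjusted p = 3.98e-30). In class I only 24 of 106 populations had a UMI of Pcdh7, and 26.3% of the UMIs were in Olfr571 neurons, without which, a choice made after the values were seen, the level was 0.104 ± 0.012. In Nqo1-rich class II, 199 of 273 populations had a UMI. Pcdh17 fell by 0.46 ± 0.07 on the log2 scale (adjusted p = 7.17e-07), with 1.43, 1.36, 1.35 and 1.02 UMIs per 10000 in class I and 1.53, 2.24, 2.18 and 1.75 in the other group, again without overlap.

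Pcdh19 and Pcdh10 also passed the test but less securely. Pcdh19 was 0.499 ± 0.067 in class I and 0.675 ± 0.071 in Nqo1-rich class II, a log2 difference of -0.40 ± 0.10 (SE, adjusted p = 0.00582), and the closest mice were 0.593 and 0.596. Pcdh10 was 0.815 ± 0.195 and 0.647 ± 0.198, a log2 difference of 0.43 ± 0.09 (adjusted p = 0.000364). The 4 mice of these groups overlapped for Pcdh10, while within each mouse class I was higher. Both calls were lost without the mouse as a block, at adjusted p = 0.146 for Pcdh19 and 0.54 for Pcdh10. That of Pcdh10 was also lost among neurons with exactly 1 receptor detected, and that of Pcdh19 without mouse 3 (adjusted p = 0.14) and after thinning. Pcdh8 had a log2 difference of -0.39 ± 0.14 that missed the threshold (adjusted p = 0.0648) and passed it at 0.0271 when libraries were scaled by total UMIs, while Pcdh9 had 0.08 ± 0.09 (adjusted p = 0.74).

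Within class II, the Nqo1-rich populations were compared in the same model with the Nfix-rich populations (6333 neurons of 541 populations), which stands for dorsal against ventral type. Of 11176 genes, 1273 were higher in Nqo1-rich neurons, 11.4%, and 1384 were lower, 12.4%. All 6 protocadherins differed, 4 of them higher (Pcdh7, Pcdh9, Pcdh17 and Pcdh19) and 2 lower (Pcdh8 and Pcdh10).

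Pcdh9 had the largest of the 6 differences, with 0.601, 0.932, 0.867 and 0.790 UMIs per 10000 in the Nqo1-rich neurons of mice 1 to 4 and 0.386, 0.502, 0.402 and 0.452 in the Nfix-rich ones. The groups did not overlap, and the log2 difference was 0.87 ± 0.07 (SE, adjusted p = 6.74e-21). Pcdh19 differed by 0.61 ± 0.07 (adjusted p = 9.33e-12), Pcdh7 by 0.39 ± 0.07 (2.22e-06) and Pcdh17 by 0.38 ± 0.05 (6.76e-10). Pcdh10 and Pcdh8 were lower on the Nqo1-rich side. Pcdh10 was 0.548, 0.514, 0.585 and 0.941 against 0.937, 0.756, 0.895 and 1.42, a log2 difference of -0.63 ± 0.06 (adjusted p = 3.51e-15). Mouse 4 stood above the others in both groups, so that the groups overlapped, while within each mouse the Nqo1-rich value was the lower one. Pcdh8 differed by -0.52 ± 0.08 (adjusted p = 1.22e-07), at 0.385 ± 0.057 against 0.561 ± 0.029. For 3 of the 24 Nqo1-rich populations with 20 or more neurons the most frequent cluster was a ventral one. Assigning sides by the deposited clusters changed none of the 6 calls.

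**Figure D5:**
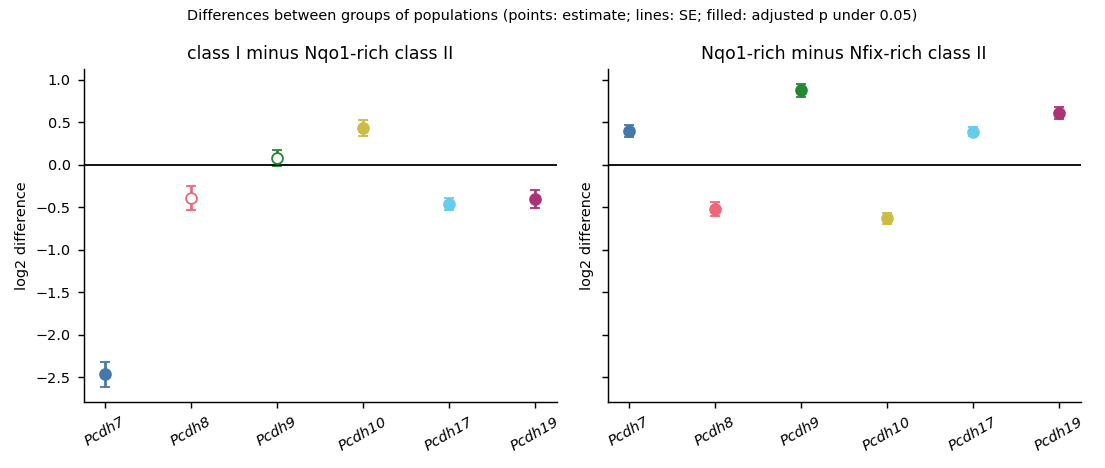
Log2 differences of the 6 genes between class I and Nqo1-rich class II neurons (left) and between Nqo1-rich and Nfix-rich class II neurons (right), with points for the estimate, lines for its SE and filled points for an adjusted p under 0.05. Pcdh7 reaches -2.46 on the left, and on the right 4 genes lie above and 2 below 0.

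Single populations spread far around these group levels. Among the large populations, Pcdh7 had a median of 0.184 UMIs per 10000 in the 24 Nqo1-rich populations and of 0.0582 in the 95 Nfix-rich ones, but the highest single populations, up to 5.38, were Nfix-rich. The group levels of Pcdh7, over populations of every size, were 0.81 and 0.61. Its mean over the 134 large populations was 0.368, so these do not stand for the groups as a whole. For Pcdh10 the medians were 0.166 and 0.290, and the highest populations stood at 2.96 and 12.2. Over all Nfix-rich populations, 0.5 of the UMIs were in 28 of 541 populations for Pcdh10, in 37 for Pcdh8, in 45 for Pcdh7, in 47 for Pcdh9, in 56 for Pcdh19 and in 94 for Pcdh17.

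Genes whose levels followed each protocadherin most closely across the 134 populations were sought among the 5831 tested, by Spearman correlation of the mean over mice of log2 (UMIs per 10000 + 0.1). Averaging logarithms can change the order of populations, so a pair can differ slightly from its value on the mean levels. Pcdh10 was closest to Sema7a, which encodes a membrane-anchored semaphorin (0.641), and to the potassium channel genes Kcng1 (0.632) and Kcnn2 (0.609), and most opposed to Jund (-0.486) and Actg1 (-0.484). Pcdh8 was closest to Rasl11a (0.636), Stmnd1 (0.626) and Kirrel (0.590), an adhesion gene of the Kirrel family, and most opposed to Ptn (-0.633) and D930020B18Rik (-0.606). For Pcdh7 the closest were Map1b (0.438), Nrp1 (0.437), the axon guidance receptor neuropilin-1, and Necab1 (0.384), and the most opposed Umodl1 (-0.440) and Ndufb8 (-0.386).

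For the other 3 genes the values were of similar or lower size. Pcdh19 was closest to Entpd2 (0.493), Prnp (0.484) and Efna3 (0.468), an ephrin, and most opposed to Wdr54 (-0.456) and Caly (-0.453). Pcdh9 was closest to Vps33b (0.506), Kcnk10 (0.436) and Plcb4 (0.423), with Chchd10 (-0.424) and Brinp2 (-0.397) at the other end. Pcdh17 had only weak relations, with Tenm2 (0.326), Stmn2 (0.274) and Tmem151b (0.273) closest and Pcdh19 (-0.380) and Mrps17 (-0.353) at the other end. These points share libraries and differ in depth, and the genes were picked as extremes of 5831, so the values describe these populations.

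Genes known for axon sorting or activity, and Cidea, were set beside the 6 by name. In separate sorted samples of Olfr151 and Olfr16 neurons, the paper listed Pcdh7, Pcdh9, Nrp1 and Sema7a among the genes that differed. The authors had named S100a5 and Cidea as differing between populations of these same cells, so the calls of these genes are no new evidence. All 6 of them (S100a5, Kirrel2, Kirrel3, Nrp1, Plxna1 and Cidea) differed among the populations, where 21.7% of all genes did, with F statistics between 5.52 for Plxna1 and 63.8 for S100a5, an activity-dependent gene. Across the mean levels (UMIs per 10000) of the 134 populations Pcdh10 had a Spearman correlation of 0.491 with Kirrel2, 0.452 with Cidea and 0.377 with S100a5. Pcdh19 went the opposite way, with -0.447 for Kirrel2 and -0.435 for S100a5. Pcdh8 had -0.504 with Kirrel3, the counterpart of Kirrel2, and Pcdh7 had 0.446 with Nrp1. These pairs were picked for their size, and for Pcdh17 the largest in size was -0.136, with Cidea. The populations of both sides are pooled here. Kirrel2 and Cidea were lower in Nqo1-rich than in Nfix-rich class II neurons (log2 -0.83 and -2.92) and Kirrel3 was higher (1.10), while Nrp1 did not pass (0.15). The part of the side difference in these correlations was not tested.

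Relatives and binding partners of these genes were counted by list. The lists, like the 6 genes, were set with earlier results of these data known. Of 6 further non-clustered protocadherins (Pcdh1, Pcdh11x, Pcdh12, Pcdh15, Pcdh18 and Pcdh20) only Pcdh11x and Pcdh1 were expressed highly enough to be tested, and both differed among populations, where 21.7% of all genes did (F = 10.0, adjusted p = 3.36e-74, and F = 2.25, adjusted p = 3.81e-10). Pcdh11x, a δ1 gene, was highest in Olfr1440, at 2.74 UMIs per 10000 over the population. Pcdh1, also δ1, was 0.339 ± 0.059 in class I, 0.123 ± 0.026 in Nqo1-rich and 0.328 ± 0.051 in Nfix-rich class II neurons (SD, n = 4). It was higher in class I by 1.53 ± 0.16 on the log2 scale (SE, adjusted p = 1.14e-13; 6.16% of all genes passed) and lower in Nqo1-rich than in Nfix-rich class II neurons, by -1.41 ± 0.12 (adjusted p = 1.34e-19; 23.8% of all genes passed).

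Of 19 classical cadherins only Cdh15 and Cdh2 could be tested among populations, and Cdh15 passed (F = 3.03, adjusted p = 2.73e-19), where 21.7% of all genes did. In the group comparisons 5 were tested, of which 2 passed for class I against Nqo1-rich class II and 4 between the class II sides, with 6.16% and 23.8% of all genes passing. In class I Cdh26 was higher than in Nqo1-rich class II by 2.58 ± 0.26 (adjusted p = 1.03e-14) and Cdh15 by 0.40 ± 0.11 (0.0148). Of the same 5, Cdh2, the neural cadherin, was higher in Nqo1-rich than in Nfix-rich neurons (0.37 ± 0.06, adjusted p = 1.08e-07), and Cdh15, Cdh26 and Cdh4 were lower. The median log2 difference of the 5 was 0.36 in the first comparison and -0.53 in the second, with medians of all genes of 0.00155 and -0.000895.

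The catenins, which link classical cadherins to actin, and the partners of the protocadherin tails were tested in the same way. Among populations, where 21.7% of all genes passed, 1 of 4 catenins tested passed, Ctnna1 (F = 1.54, adjusted p = 0.00235), and of 6 genes of the WAVE complex 1 passed, Cyfip2 (F = 1.51, adjusted p = 0.00341). The median F was 1.13 for the catenins and 1.04 for the WAVE genes, against 1.06 for all genes. The genes Ppp1ca, Ppp1cb, Ppp1cc and Set encode partners of the δ1 tail, and Ppp1cb and Ppp1ca, of 3 tested, differed among populations (F = 1.73, adjusted p = 5.21e-05, and F = 1.48, adjusted p = 0.00622). Between class I and Nqo1-rich class II neurons the lowest adjusted p among the 6 catenins, 8 WAVE genes and 4 genes of the phosphatase group tested was 0.144, for Wasf2. Between the class II sides, where 23.8% of all genes passed, Ctnna1, Jup, Cyfip1 and Set were higher in Nqo1-rich neurons, by 0.45 ± 0.06, 0.31 ± 0.08, 0.51 ± 0.19 and 0.17 ± 0.04 on the log2 scale, and Ppp1ca fell by 0.19 ± 0.04.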

How the data were processed

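Cells of the main olfactory epithelium were dissociated with papain, sorted as Hoechst+ DRAQ7- cells and made into 10x 3′ libraries. Per the labels and methods, the authors aligned reads to GRCm38 with Cell Ranger 6.0.1 and an annotation with redrawn receptor gene ends, removed clusters of blood cells, immune cells and cells rich in mitochondrial genes, and annotated types, neuron clusters and receptor identities. The deposited values are UMI counts per gene and barcode, and the counts of the 6 genes in the merged table were the same as in the matrices of the single libraries for all 21809 barcodes. No doublet caller was run here.

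The 6 genes, the lists and the populations set beside them were chosen with earlier results of these data known. UMIs were summed per mouse over each type, cluster, population and class group, and sums were tested with edgeR 4.0.16 in R 4.3.3 (TMM scaling, glmQLFit, mouse as a block, Benjamini-Hochberg adjustment, threshold 0.05). Genes needed a mean of at least 1 UMI per sum for populations and 10 for groups, and receptor genes were left out. All sums of 1 mouse come from the same animal: after removing group means, 12 pairs of sums from the same mouse correlated at 0.161 to 0.649 and 36 pairs from different mice at -0.469 to 0.138. All 6 genes were described, and of their populations the 3 highest by mean level and the 3 deepest without a UMI were named, with the 3 closest and 2 most opposed genes.

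On simulated counts the population test recovered 78% of genes with 2-fold changes and 100% with 4-fold changes, and the class comparison 29.3% at 1.5-fold and 85% at 2-fold. The simulated counts held no mouse effect and had a fixed dispersion in each comparison, so rates on the real counts may differ. Alternatives were no filter, a stricter filter, DESeq2 1.42.0, scaling by total UMIs, no block, thinning to 3000 UMIs, neurons with exactly 1 receptor detected, populations to which every mouse gave 5 or more neurons, sides from the deposited clusters, and leaving out each mouse.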

Additional observations from a re-analysis of the deposited data

Results flagged for a closer look

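Among the 136 sets of 4 mouse values that were examined for a mouse apart from the others, 9 held one, and chance gives about 1 in 20. Pcdh10 was apart in mouse 4 in Nqo1-rich class II neurons (0.941 UMIs per 10000) and in the ventral Calb2+ cluster (1.30), and in mouse 1 in INP (0.240) and in Mv2 (0.0195). Mouse 2 stood apart for Pcdh7 in Mv1 (0.995) and in the dorsal Cd55+ cluster (0.666), for Pcdh8 in HBC2 (0.165) and in the Ventral cluster (0.550), and for Pcdh9 in sustentacular cells (0.0801). In each of these the mouse was higher than the other 3.

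The cells that the authors had removed also held transcripts of the 6 genes. Their summed level was 0.379 UMIs per 10000 in the blood cells, 0.717 in the immune cells and 4.43 in the cells rich in mitochondrial genes, whose median depth was 932 UMIs.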

How the results depend on the processing

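Of the tests of single protocadherins under the alternatives, 251 kept their side of the threshold, 5 lost the call and 1 gained it. Only the group comparisons have a direction, and none of those reversed. The lost calls were those of the class I comparison: Pcdh10 without the mouse as a block (log2 0.39, adjusted p = 0.54) and among neurons with exactly 1 receptor detected (0.30, adjusted p = 0.129), and Pcdh19 without the block (-0.40, adjusted p = 0.146), after thinning (-0.45, adjusted p = 0.0768) and without mouse 3 (-0.32, adjusted p = 0.138). The gained call was Pcdh8 when scaled by total UMIs (-0.44, adjusted p = 0.0271). Over the 11 alternatives the adjusted p of this comparison ran from 4.16e-06 to 0.54 for Pcdh10, from 0.000186 to 0.146 for Pcdh19 and from 0.0271 to 0.903 for Pcdh8. Without the block 2 of the 6 genes were called in this comparison, not 4, and the block changed no other call. The causes were not tested.

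Counts over all genes moved more. Among populations the count was 2103 without a filter on low counts, 768 with exactly 1 receptor detected and 659 after thinning, where fewer genes were tested, against 1264, and 912 to 980 with a mouse left out. Among Nfix-rich populations it was 1634, 680 and 547 in the same order, against 1056, and 732 to 829 with a mouse left out. For class I against Nqo1-rich class II it was 202 without the block, 308 after thinning, 426 by DESeq2 and 440 to 571 with a mouse left out, lowest without mouse 3, against 688. Scaling by total UMIs lowered the share of higher genes among the calls there from 59.2% to 35.3%. Between the class II sides it was 1225 without the block, 1660 after thinning and 1518 by DESeq2, against 2657.

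Some genes fell below a filter and were not tested: Pcdh7 among populations with exactly 1 receptor detected, Pcdh7 and Pcdh8 after thinning, Pcdh19 under edgeR's filterByExpr, and among Nfix-rich populations Pcdh7 after thinning and Pcdh9 and Pcdh19 under filterByExpr. Levels of the genes by type, cluster and population moved by 1 SD over mice or more in 16 cases after thinning and stayed within it in 122. Taken as a mean over cells of UMIs per 10000, they moved in 9 cases and stayed in 129. Leaving out a mouse cannot move a mean by 1 SD of the same mice, so it is no check of these levels. Depth limits the low levels: in the populations named as without a UMI, 0 counts allow levels of up to 0.0688 to 0.315 UMIs per 10000, and an order among them was not detectable at this depth.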

Other observations

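Receptor genes lie in arrays, and neurons expressing neighbouring receptors can be compared. Over 68 pairs of the large populations that share receptor class and side and whose receptor genes lie within 100 kb of each other, the median absolute difference between the populations' levels, on the scale log2 (UMIs per 10000 + 0.1), was 0.777 for Pcdh7, against 1.19 over the other 4764 pairs of the same class and side. For Pcdh8 the medians were 0.959 and 1.48, for Pcdh17 0.789 and 1.07, and for Pcdh10 1.48 and 1.69. For Pcdh9 (1.32 and 1.35) and Pcdh19 (0.923 and 1.04) they were closer. On this scale populations without a UMI do not differ from each other, and Pcdh7 and Pcdh8 had no UMI in 48 and 58 of the 134 populations. The paper regards receptor sequence identity as a likely confounder of genomic proximity. The part of either in these medians was not tested. Pairs share populations and no test was made.

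At equal depth more of the 6 genes were detected per cell in iOSN2 than in mature OSNs, and fewer in iOSN1. After thinning to 3000 UMIs, 28.7% ± 1.1 of iOSN2 cells had none of the 6 genes, against 35.0% ± 1.8 of mature OSNs and 39.6% ± 2.6 of iOSN1 cells (SD, n = 4). The share with 3 of the genes was 7.81% ± 2.48 in iOSN2, 5.07% ± 0.39 in mature OSNs and 3.38% ± 1.03 in iOSN1.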
